A study of Homo sapiens with 5 samples.

Results

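Integrins and laminins form the main link between a cell and its basement membrane, and their subunit genes were followed here in MDA-MB-231, a human breast cancer cell line, after exposure to the histone deacetylase inhibitor SAHA (vorinostat). The members were all genes whose symbol names an integrin alpha or beta subunit or a laminin chain and that had a probe set assigned to that gene alone. They came to 35 of the 19775 genes measured, 25 integrin subunits and 10 laminin chains, and each gene was represented by its brightest probe set over all arrays. The same symbol stems also take in 10 genes that encode no subunit, such as antisense transcripts and binding proteins, which were kept apart. The subunit gene ITGB6 had only probe sets shared with another gene, and LAMA3 was not analysed here.

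Total RNA was measured on 5 single-colour arrays. The vehicle group was 3 arrays of cells given DMSO, and the treated group was 2 arrays of cells given 2 uM SAHA, both collected after 30 h. All arrays come from this line in culture. The labels' extraction protocol speaks of lysis 3 days after a transfection, which no other label describes and which differs from the 30 h given for the treatment. They also do not say whether the replicates of a group were grown apart, so the p-values reflect array-to-array spread alone, possibly technical. In RNA from whole cultures, fewer cells of a type and less RNA per cell cannot be told apart.

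Integrins are receptors made of an alpha and a beta subunit. The pair sets the ligand, such as collagen, laminin or the RGD motif of fibronectin, and the beta tail couples the receptor to talin, kindlin and the actin cytoskeleton. Laminins are cross-shaped trimers of an alpha, a beta and a gamma chain that self-assemble into the sheet on which epithelial cells rest. In breast epithelium, laminin and its integrins organise polarity and survival, and carcinoma cells use the same receptors to attach and to move.

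The line's own markers were present, and markers of other cell types lay on both sides of the array median. All 8 markers of mesenchymal breast cancer cells, among them VIM, CD44 and CAV1, lay above the array median (the lowest DMSO array median was 6.49 on the log2 scale), whereas 3 of 6 leukocyte, 4 of 6 endothelial, 2 of 5 platelet and 0 of 6 fibroblast and muscle markers had a DMSO mean below it. The dimmest of their lists included PTPRC, the common leukocyte marker (3.78), and the endothelial CDH5 (3.96), while CD79A (7.35), PECAM1 (7.48), GP9 (7.63) and COL1A1 (8.73) lay above the median. Of 8 luminal markers, PGR (4.49), CDH1 (4.67) and FOXA1 (5.18) lay below that median, ESR1 (7.01) a little above it, and EPCAM (10.28), KRT8 (11.68), GATA3 (9.41) and ERBB2 (9.02) well above it. The array DMSO 1 stood apart in the ACTB controls, with a 3′ minus 5′ difference of 3.29 on the log2 scale against 2.04 to 2.22 on the other arrays. For the GAPDH controls the difference was 0.83 on DMSO 1 against 0.55 to 0.69 on the others. Whether this reflects RNA integrity was not tested. Counts without DMSO 1 are given below for the members, their probe sets and the gene lists other than the hemidesmosome plaque.

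Most subunit genes showed no call, and those that did went both ways. By limma with a Benjamini-Hochberg adjusted p under 0.05 over all genes (here "called"), 4 of the 35 rose and 3 fell. ITGA1, ITGB8, LAMB3 and ITGA5 rose by 1.94- to 2.68-fold, and LAMB1, ITGAE and ITGB5 fell by 0.90, 0.66 and 0.40 on the log2 scale. Called members made up 20%, and 29.6% of all genes were called (14% higher and 15.6% lower). Of the 23 members whose DMSO mean was at or above the array median, 6 were called (26.1%, against 41.1% of all such genes), and of the 12 below it 1 was called (8.33%, against 7.77%). The median log2 fold of the members was -0.02, beside -0.03 for all genes. Both SAHA arrays lay above all DMSO arrays for 10 members and below them for 7, and 48.1% of all genes had such groups that did not overlap (22.1% above and 26% below). Of the called members 3, ITGA1, ITGB8 and LAMB3, changed by at least 2-fold, all of them higher, where 3.21% of all genes were called and at least 2-fold higher, 2.54% lower and 5.75% either way. Leaving out DMSO 1 gave 4 members higher and 2 lower, and across the arrays left out in turn 4 to 6 members were higher and 1 to 3 lower. The number lower was 1 without DMSO 3, and the number higher was 6 without SAHA 2.

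The scale matters for the direction of the small changes. RMA forces the arrays to 1 common distribution, and the added poly-A control RNAs differed between the groups by a median of 0.39 on the log2 scale over 24 probe sets. With each array centred on those controls the median gene lay at -0.40, 4 members were called higher and 24 lower. The 4 were again ITGA1 (1.05), ITGB8 (0.95), LAMB3 (0.70) and ITGA5 (0.59). Any error in an array's offset shifts all its genes alike, so the calls on this scale are not independent of each other. Folds below are on the RMA scale.

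**Figure D1:**
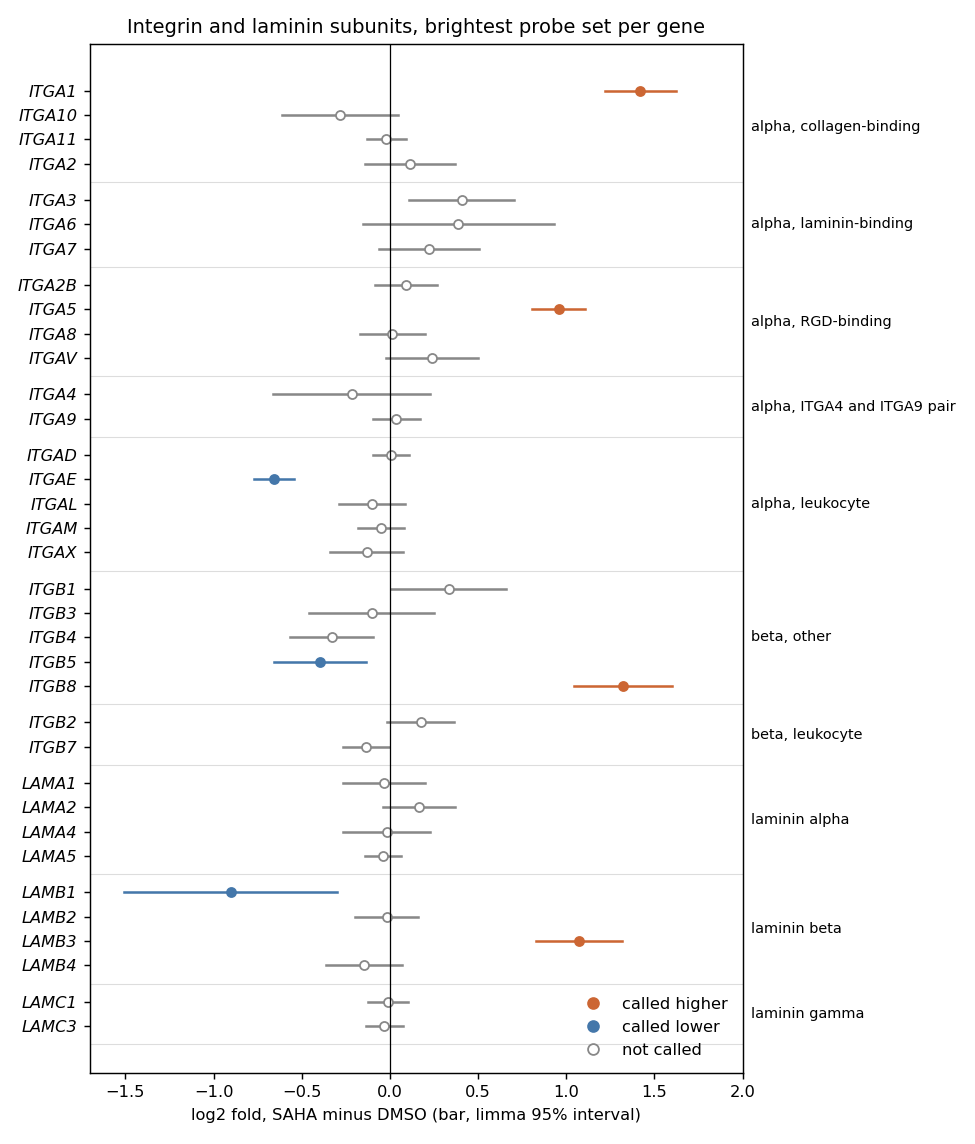
Log2 fold (SAHA minus DMSO, horizontal axis) of the 35 integrin and laminin subunit genes in order of role, as points with limma 95% intervals; orange is called higher, blue called lower and open grey not called. ITGA1, ITGB8, LAMB3 and ITGA5 stand to the right of 0, LAMB1, ITGAE and ITGB5 to the left, and 28 members were not called.

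The collagen-binding receptor ITGA1 had the largest change of all members. ITGA1 encodes an alpha subunit with an inserted I domain that pairs with ITGB1 and favours the collagen of basement membranes. Its log2 intensity was 7.49, 7.42 and 7.58 on the DMSO arrays and 8.84 and 9.0 on the SAHA arrays. The groups were far apart relative to their spread, and the log2 fold was 1.42 ± 0.08 (SE; limma adjusted p = 0.000788), a 2.68-fold rise that exceeded 98.5% of genes. All 3 ITGA1 probe sets were called higher, at 1.42, 1.62 and 0.92, and the gene was called with each array left out (1.34 to 1.5).

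In the RefSeq table (GRCh38.p14) ITGA1 lies at chr5:52787916-52959209 and PELO, which encodes a ribosome rescue factor, starts at the same base. PELO, on its own probe set, rose by 0.50 ± 0.11 on the log2 scale (SE; limma adjusted p = 0.026), and its part in the ITGA1 signal was not tested. None of the other 3 collagen-binding alpha subunits was called. ITGA2, which epithelia also pair with ITGB1, had a log2 fold of 0.11 (95% interval -0.14 to 0.37; limma adjusted p = 0.449). ITGA11 gave -0.02 (-0.13 to 0.09; 0.75). ITGA10 gave -0.28 (-0.61 to 0.05; 0.184), with both SAHA arrays below the DMSO arrays. The differences between ITGA1 and these genes were not tested.

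ITGB8 had the next largest rise. ITGB8 pairs with ITGAV, binds latent TGF-beta and differs from other beta subunits in its cytoplasmic tail, and the gene lies at chr7:20329766-20415754. The DMSO arrays read 6.10, 6.24 and 6.0 and the SAHA arrays 7.54 and 7.32, so that every SAHA value was above every DMSO value by more than the spread within either group. The log2 fold was 1.32 ± 0.11 (SE; limma adjusted p = 0.00171), a 2.50-fold rise. Its DMSO mean of 6.11 was below the array median, so the size of the fold is uncertain. The 5 ITGB8 probe sets were not alike, with log2 folds of 0.06 to 1.32, of which 2 were called, both higher. With the probe sets averaged the gene gave 0.44, still called (limma adjusted p = 0.00208).

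LAMB3 led the laminin chains. It encodes the beta chain of the epithelial laminin that anchors hemidesmosomes. LAMB3 read 11.07, 11.18 and 11.32 in DMSO and 12.20 and 12.32 in SAHA. Its groups did not overlap, and the lowest SAHA value exceeded the highest DMSO value by more than the DMSO values differed among themselves. LAMB3 rose by 1.07 ± 0.09 on the log2 scale (SE; limma adjusted p = 0.00211), or 2.10-fold, from its only probe set, and it was called with each array left out (1.01 to 1.14).

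The start regions of these 3 members, which had the largest absolute folds, are shown because these genes, on separate chromosomes, all rose. Sequences are from RefSeq (GRCh38.p14), 250 bases that end just before an annotated start site, 5′ to 3′ on the gene's strand. Of the 35 members, 24 had such a window. The windows lie at chr5:52787666-52787915 (plus strand) for ITGA1, chr7:20330650-20330899 (plus) for ITGB8, and chr1:209652426-209652675 and chr1:209651375-209651624 (both minus) for the outermost and the innermost of 3 LAMB3 windows. The ITGB8 window precedes a start site inside the annotated gene. Capitals mark 4 motifs on either strand: the GC box, spelled GGGCGG, the box named for its letters CCAAT, the AP-1 motif, spelled TGANTCA, and the E-box, spelled CACGTG.
ITGA1: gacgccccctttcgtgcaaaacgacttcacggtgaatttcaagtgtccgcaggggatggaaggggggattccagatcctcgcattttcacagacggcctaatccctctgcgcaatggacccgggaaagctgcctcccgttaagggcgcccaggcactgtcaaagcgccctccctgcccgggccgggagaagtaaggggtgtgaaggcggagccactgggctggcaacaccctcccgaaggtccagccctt
ITGB8: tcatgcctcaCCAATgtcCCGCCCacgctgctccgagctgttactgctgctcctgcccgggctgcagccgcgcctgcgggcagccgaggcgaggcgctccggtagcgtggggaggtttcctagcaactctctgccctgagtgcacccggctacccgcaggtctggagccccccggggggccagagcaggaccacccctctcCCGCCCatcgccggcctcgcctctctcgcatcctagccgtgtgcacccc
LAMB3 outermost: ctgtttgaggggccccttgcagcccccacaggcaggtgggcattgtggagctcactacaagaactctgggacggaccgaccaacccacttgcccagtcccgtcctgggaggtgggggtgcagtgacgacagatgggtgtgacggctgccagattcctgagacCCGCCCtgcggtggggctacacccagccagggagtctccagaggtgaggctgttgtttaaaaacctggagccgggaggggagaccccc
LAMB3 innermost: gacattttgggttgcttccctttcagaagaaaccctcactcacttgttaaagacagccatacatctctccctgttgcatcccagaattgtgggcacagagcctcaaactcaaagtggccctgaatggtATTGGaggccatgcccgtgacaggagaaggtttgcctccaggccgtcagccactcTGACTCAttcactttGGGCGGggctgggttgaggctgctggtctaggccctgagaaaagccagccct
ITGA1 had none of the 4 motifs in this window, ITGB8 had 2 GC boxes and 1 CCAAT box, the outermost LAMB3 window had 1 GC box, and the innermost LAMB3 window had 1 each of the GC box, the CCAAT box and AP-1. No 2 of the marked motifs overlapped. Among all 35116 windows of this length, 42.6% held a GC box, 32% a CCAAT box, 6.6% the AP-1 motif and 6.3% the E-box. These are matches of letters in a window and do not show binding.

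**Figure D2:**
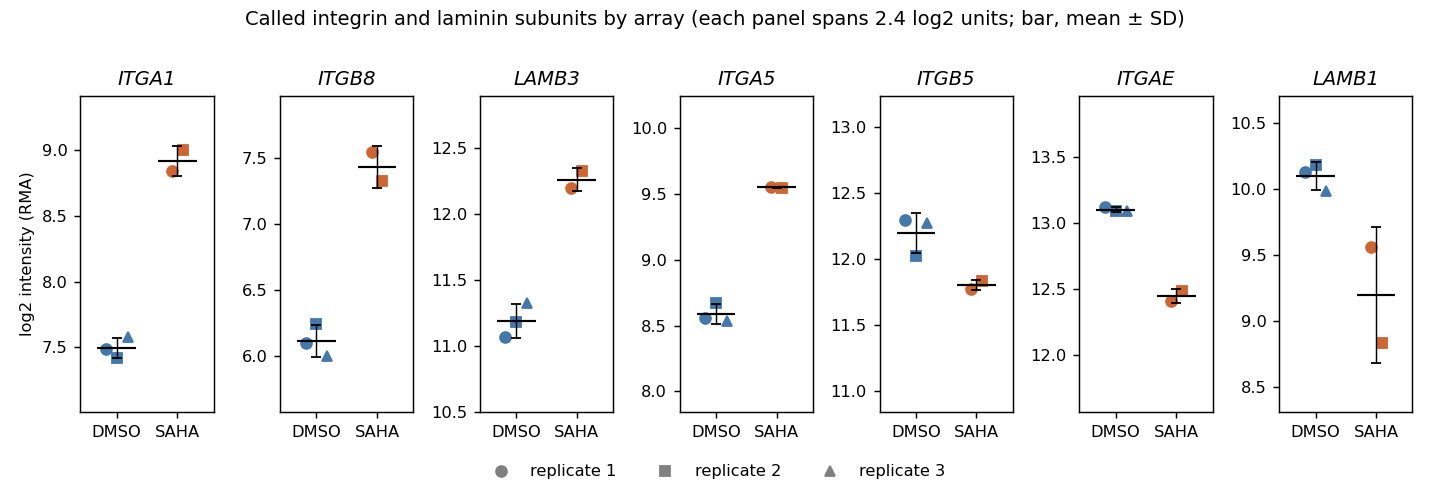
Log2 RMA intensity on each array for the 7 called members, DMSO in blue and SAHA in orange, with the mean ± SD as black bars and the replicate number as symbol shape; every panel spans the same log2 width. ITGA1, ITGB8, LAMB3 and ITGA5 lie higher on both SAHA arrays, and for LAMB1 the SAHA arrays lie far apart (9.56 and 8.83).

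Among the alpha subunits that read the RGD motif, only ITGA5 was called. ITGA5 encodes the alpha chain of the classical fibronectin receptor with ITGB1 and lies at chr12:54395261-54419266. It read 8.56, 8.67 and 8.54 in DMSO and 9.55 and 9.55 in SAHA, and the SAHA arrays were nearly equal. The log2 fold was 0.96 ± 0.06 (SE; limma adjusted p = 0.000977), or 1.94-fold, and it was called with each array left out (0.93 to 1.00). ITGAV, which pairs with ITGB1, ITGB3, ITGB5, ITGB6 and ITGB8, had 0.24 (95% interval -0.02 to 0.50; limma adjusted p = 0.159), although both its SAHA arrays lay above all DMSO arrays. ITGA8 and the platelet subunit ITGA2B gave 0.01 and 0.09 on their brightest probe sets, with groups that overlapped. The 4 probe sets of ITGA8 ran from -0.22 to 0.04 and the 4 of ITGA2B from -0.24 to 0.09, none called. On the lowest of each, both SAHA arrays lay below all DMSO arrays.

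The alpha subunits grouped here as laminin-binding (ITGA3, ITGA6 and ITGA7) and ITGB4 were not called. ITGA3 and ITGA6 encode the laminin-binding alpha subunits of epithelia, and ITGA7 that of muscle. ITGA3 read 10.93, 10.88 and 10.73 in DMSO and 11.40 and 11.11 in SAHA. Its groups did not overlap, and the log2 fold of 0.41 ± 0.11 (SE) missed the threshold (limma adjusted p = 0.0574). ITGA6 had 0.39 (95% interval -0.15 to 0.93), with SAHA arrays at 12.26 and 11.66, the lower of which lay within the DMSO range. ITGA7 had 0.22 (-0.06 to 0.50). ITGB4, the long-tailed partner of ITGA6 in hemidesmosomes, went the other way, from 9.10, 9.30 and 9.33 to 8.86 and 8.96. That difference of -0.33 ± 0.09 (SE) also missed the threshold (limma adjusted p = 0.0523). ITGA3 and ITGB4 were both called, in these directions, when dim genes were left out (limma adjusted p = 0.0236 and 0.0247). With probe sets averaged ITGB4 gave -0.12 (0.24), and on the poly-A scale ITGA3 gave 0.03 (0.806).

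ITGB1 encodes the common beta subunit of the collagen, fibronectin and laminin receptors. On its brightest probe set ITGB1 read 13.80, 13.87 and 13.74 in DMSO and 14.32 and 13.95 in SAHA, without overlap. The log2 fold was 0.33 ± 0.12 (SE; limma adjusted p = 0.122). A second bright ITGB1 probe set was called higher at 0.56 ± 0.09 (SE; limma adjusted p = 0.0159 over all probe sets), and the 7 probe sets ran from -0.01 to 0.69. Without SAHA 2 the brightest gave 0.52 and was called (limma adjusted p = 0.0348), and on the poly-A scale it gave -0.04 (0.767). The divergent transcript ITGB1-DT, which is no subunit gene, fell by 0.63 on the log2 scale (limma adjusted p = 0.01), a call that ended without DMSO 2, SAHA 1 or SAHA 2 (0.0543, 0.0809 and 0.0807).

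ITGB5, the beta subunit of a vitronectin receptor with ITGAV, was called lower, narrowly, and lies at chr3:124761948-124901418. It read 12.30, 12.02 and 12.27 in DMSO and 11.77 and 11.83 in SAHA, and the groups did not overlap. The log2 fold was -0.40 ± 0.10 (SE; limma adjusted p = 0.0438). The ITGB5 call ended without DMSO 1, DMSO 3, SAHA 1 or SAHA 2 (0.125, 0.15, 0.214 and 0.152), and the best remaining probe set without shared-sequence ones (names ending in _x_at or _s_at) gave -0.02 (0.729).

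ITGB3, which pairs with ITGAV and ITGA2B, shows how far probe sets of a gene can differ. Its brightest probe set gave -0.10 (95% interval -0.46 to 0.25). A dimmer probe set of the gene rose by 1.06 ± 0.05 (SE; limma adjusted p = 0.0013 over all probe sets), from a mean of 5.91 to 6.97. The other 5 ITGB3 probe sets lay between -0.12 and 0.14 and were not called. What these probe sets detect was not tested.

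**Figure D3:**
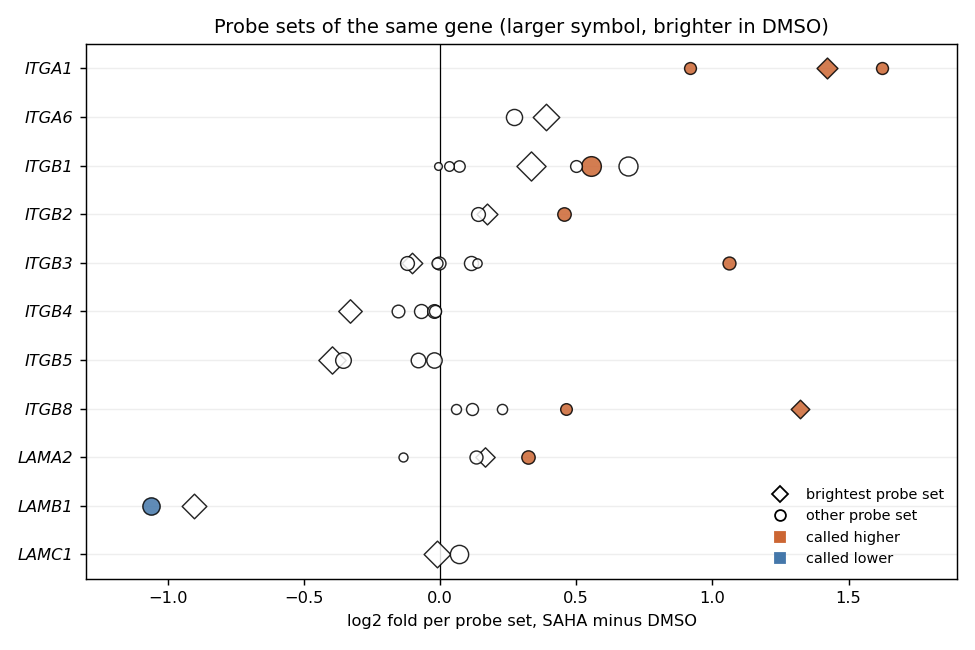
Log2 fold (SAHA minus DMSO) of every probe set of 11 subunit genes with more than 1 probe set, a row per gene; diamonds are the brightest probe set, circles the others, symbol size grows with the DMSO level, and fill marks calls over all probe sets. The 3 ITGA1 probe sets all lie above 0.9, the 2 LAMB1 probe sets both near -1, and ITGB3 has 1 probe set at 1.06 and 6 near 0.

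Across all 95 probe sets of the members, 11 were called higher and 2 lower, against 11% and 11.1% of the 41091 probe sets with 1 gene (22.1% either way). Without DMSO 1 the counts were 10 and 3. Without SAHA 1 the number lower was 5 and without SAHA 2 it was 4. The 2 lower were those of ITGAE and the second probe set of LAMB1. Beyond the genes called above, single probe sets of ITGB1, ITGB2, ITGB3 and LAMA2 were called higher while the brightest probe set of the gene was not. For ITGB2, the beta subunit of leukocyte integrins, this probe set rose by 0.45 ± 0.05 (SE; limma adjusted p = 0.00698), and the brightest gave 0.17. For LAMA2, the alpha chain of muscle laminin, it rose by 0.32 ± 0.06 (SE; 0.0199), and the brightest gave 0.17.

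LAMB1, the beta chain of the widely expressed laminins, fell. On its brightest probe set it read 10.13, 10.18 and 9.98 in DMSO and 9.56 and 8.83 in SAHA. Both SAHA arrays were lower but far apart, and the log2 fold was -0.90 ± 0.23 (SE; limma adjusted p = 0.0451). The second LAMB1 probe set gave -1.06 ± 0.06 (SE; limma adjusted p = 0.00158 over all probe sets). The call on the brightest probe set ended without DMSO 1, DMSO 2, DMSO 3 or SAHA 2 (0.146, 0.162, 0.131 and 0.057), and the log2 fold was -0.54 without SAHA 2 and -1.27 without SAHA 1. With both probe sets averaged the gene was called at -0.98 (0.00585). LAMB1 lies at chr7:107923799-108003161 and LAMB3 at chr1:209614870-209652425.

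The other laminin chains were near 0. LAMC1, the gamma chain found in most laminins, read 11.73, 11.75 and 11.73 in DMSO and 11.76 and 11.69 in SAHA. Its groups overlapped, and the difference of -0.01 had a 95% interval of -0.12 to 0.10. LAMA5, an alpha chain of epithelial basement membranes, gave -0.04 (-0.14 to 0.07) and LAMB2 -0.02 (-0.20 to 0.16). LAMA1, LAMA4, LAMB4 and LAMC3, with DMSO means below the array median, ranged from -0.15 to -0.02. Thus a beta chain rose, another fell, and neither LAMC1 nor a measured alpha chain was called on its brightest probe set.

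ITGAE, the alpha subunit that binds E-cadherin and marks lymphocytes in epithelia, was the member of the leukocyte group that fell. It read 13.12, 13.09 and 13.09 in DMSO and 12.41 and 12.48 in SAHA, a wide gap beside the spread of either group. The log2 fold was -0.66 ± 0.04 (SE; limma adjusted p = 0.00115), and it was called with each array left out (-0.69 to -0.62). ITGAE lies at chr17:3714628-3801188 and overlaps HASPIN, a histone H3 kinase gene of mitosis within its span, and in part P2RX5, an ATP-gated channel gene. HASPIN fell by 0.62 and P2RX5 by 0.53 on the log2 scale (limma adjusted p = 0.0079 and 0.00494). The part of these overlaps in the ITGAE signal was not tested. CDH1, the gene of its ligand E-cadherin, rose by 1.64 (0.00259) from a DMSO mean of 4.67.

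The remaining leukocyte subunits gave small differences. ITGAD, ITGAL, ITGAM and ITGAX lay between -0.13 and 0.01, ITGB7 at -0.14 and ITGB2 at 0.17, and none of these 6 was called. Of the 8 leukocyte markers 6 were measured, CD14 rose by 0.87, PTPRC fell by 0.34 from its dim level (limma adjusted p = 0.00562 and 0.0176), and their summed linear intensity was 509 to 562 in DMSO and 568 to 594 in SAHA. The part of leukocyte markers in these values was not tested. The ITGB2 antisense gene ITGB2-AS1 was called higher at 0.42 ± 0.09 (SE; limma adjusted p = 0.0316), but without shared-sequence probe sets it gave -0.06, on the poly-A scale 0.05 (0.722), and it was not called without DMSO 1, DMSO 2, DMSO 3 or SAHA 1 (0.0665 to 0.119). ITGA4 and ITGA9, which bind VCAM1 and tenascin, gave -0.22 and 0.04 from dim levels.

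Genes for the proteins that tie integrins to actin and signalling changed in both directions. Of 37 measured genes of the adhesion complex, 9 rose and 7 fell (43.2% called, against 29.6% of all genes), with a median log2 fold of 0.03. All but 2 of the 37 had a DMSO mean at or above the array median, where 41.1% of all genes were called. Without DMSO 1 the counts were 5 and 6, while those of all genes fell from 2760 and 3089 to 2075 and 2353. NEDD9, a scaffold of the CAS family phosphorylated by focal adhesion kinase, rose by 2.18 ± 0.14 (SE; limma adjusted p = 0.00103). RSU1, a partner of the PINCH adaptor, and the GTPase RAP1A, which drives talin to integrins, followed at 1.08 and 0.77 (0.00736 and 0.0211). RSU1 gave 0.15 without shared-sequence probe sets (0.272) and was not called without SAHA 1 or SAHA 2 (0.0809 and 0.0577). RAP1A was not called without DMSO 1, DMSO 2, DMSO 3 or SAHA 1 (0.0617 to 0.0978). TGFB1I1, the paxillin relative Hic-5, fell by 1.47, FERMT1, the epithelial kindlin that activates beta subunits, by 1.15, and PARVA, the parvin partner of integrin-linked kinase, by 0.96 (limma adjusted p = 0.000614, 0.0012 and 0.00146). With probe sets averaged NEDD9 gave 1.25, RAP1A 0.34, FERMT1 -0.67 and PARVA -0.61, all still called.

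Integrin ligands outside the laminins and collagens had 11 genes up and 3 down of 29. Called genes made up 48.3%, against 29.6% of all genes (14% higher and 15.6% lower). The median log2 fold of the ligands was 0.06. Without DMSO 1 the counts were 9 and 2, while those of all genes fell from 2760 and 3089 to 2075 and 2353. THBS1, a matricellular ligand that also activates TGF-beta, rose by 1.58 ± 0.26 (SE; limma adjusted p = 0.0117), CCN2 by 1.42 and TGFBI by 1.19 (0.00196 and 0.000771). THBS1 gave 3.88 without shared-sequence probe sets and lost its call without DMSO 1, DMSO 3 or SAHA 1 (0.054, 0.0532 and 0.0702). CCN3 fell by 1.05, ICAM3, a leukocyte integrin ligand, by 0.88 and the microfibril gene FBN1 by 0.28 (0.0041, 0.00284 and 0.0299). The FBN1 call ended with each array left out (0.062 to 0.114), and without shared-sequence probe sets FBN1 gave 0.02 (0.705).

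Of 14 other basement membrane genes, 4 rose and 0 fell by limma, with a median log2 fold of 0.17. Called genes made up 28.6%, all of them higher, where 14% of all genes were called higher and 15.6% lower (29.6% either way). The counts were also 4 and 0 without DMSO 1. NTN4, a netrin that binds laminin gamma chains, rose by 2.34 ± 0.21 (SE; limma adjusted p = 0.00219), from a DMSO mean of 6.29 that lay below the array median. FREM2 and FRAS1, partners in the matrix complex lost in Fraser syndrome, rose by 1.94 and 1.12 (0.00156 and 0.000935). FREM2 started from a dim 3.30, and FRAS1 gave 0.14 without shared-sequence probe sets (0.326). EFEMP1, a fibulin named here after its value was seen, rose by 0.70 (0.00188).

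Other laminin receptors and the tetraspanins that bind integrins had 6 members up and 4 down of 18 (55.6% called, against 29.6% of all genes). Their median log2 fold was 0.07. Without DMSO 1 the counts were 2 up and 3 down, while those of all genes fell from 2760 and 3089 to 2075 and 2353. All but 2 of the 18 were at or above the array median, where 41.1% of all genes were called. SDC4, a syndecan of focal adhesions, rose by 1.13 ± 0.18 (SE; limma adjusted p = 0.0108), BCAM, which binds LAMA5, by 0.56 and the tetraspanin CD9 by 0.53 (0.0391 and 0.00845). SDC1 fell by 0.63, SGCB of the dystroglycan complex by 0.52, the urokinase receptor PLAUR by 0.34 and the tetraspanin CD63, named after its value was seen, by 0.23 (0.00736, 0.0184, 0.017 and 0.0362). The calls of SDC4, CD9 and SDC1 ended without SAHA 1 or SAHA 2 (0.0541 to 0.0913). On the poly-A scale BCAM gave 0.19 and CD9 0.15 (0.156 and 0.228). BCAM was not called without DMSO 1, DMSO 2, DMSO 3 or SAHA 2 (0.0519 to 0.145). SGCB was not called without DMSO 1, DMSO 2, SAHA 1 or SAHA 2 (0.0509 to 0.132), nor PLAUR without DMSO 2, DMSO 3, SAHA 1 or SAHA 2 (0.0568 to 0.0973), nor CD63 without any 1 of the 5 arrays (0.0719 to 0.114). SGCB gave -0.14 and PLAUR -0.05 without shared-sequence probe sets (0.314 and 0.743). Of 5 measured hemidesmosome plaque genes 1 was called (20%, against 29.6% of all genes), and 2 of the 5 had a DMSO mean below the array median. The called gene was DST, the plakin BP230, higher at 0.27 (limma adjusted p = 0.0489). Its call ended without DMSO 2 or DMSO 3, and the log2 fold was 0.22 to 0.32 across the arrays left out in turn. On the poly-A scale DST turned to -0.11 (0.425).

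**Figure D4:**
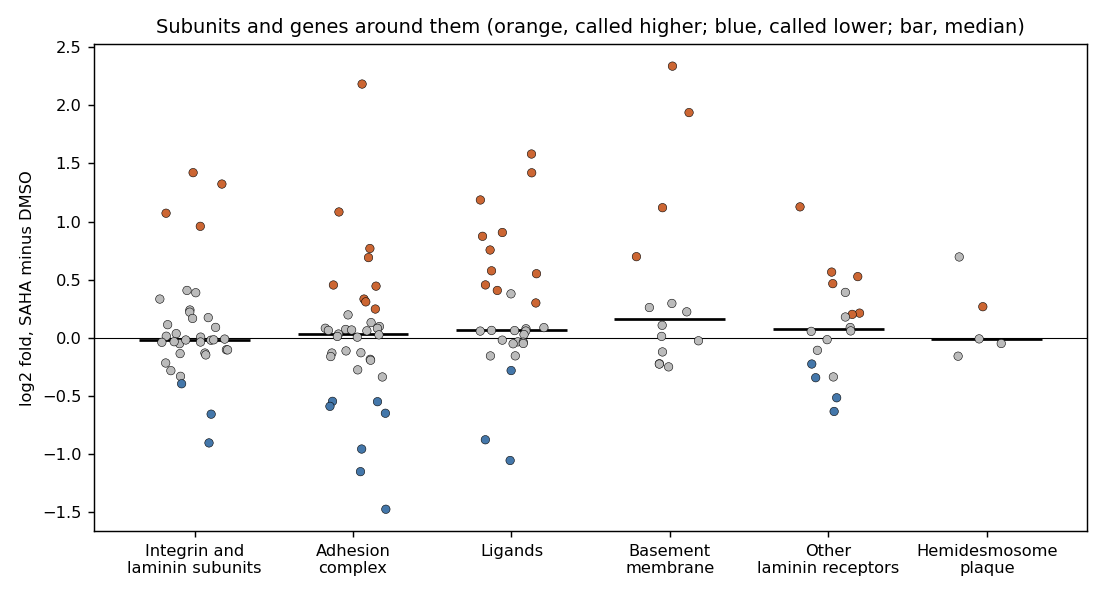
Log2 fold (SAHA minus DMSO, vertical axis) of each integrin and laminin subunit and of each measured gene in 5 lists around them, as points spread sideways for legibility; black bars are medians, orange is called higher, blue called lower and grey not called. Medians lie between -0.02 and 0.17, while NEDD9 (2.18) and NTN4 (2.34) stand highest and TGFB1I1 (-1.47) lowest.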

How the data were processed

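The authors deposited intensity values on a linear scale for 54675 probe sets on 5 arrays, made with RMA in R 2.12 per the submitters' processing notes. RMA corrects background, equalises the arrays' distributions and summarises each probe set, so a shift of all transcripts one way is removed. The table has no detection calls. Values ran from 4.56 to 38935, and log2 was taken with no further normalization.

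Probe sets were named through the platform annotation. Symbols, changed or not, were taken from RefSeq by gene identifier for 41037 of the 41091 probe sets with 1 gene. Those with several genes (1801), none given (11721) or array controls (62) were left out. The brightest probe set by the mean over all arrays stood for each of 19775 genes, with no filter on level. SAHA was compared with DMSO with limma 3.58.1 in R 4.3.3 (lmFit and eBayes, no covariates, two-sided, 3 residual and 1.62 prior degrees of freedom), adjusted by Benjamini-Hochberg over all genes, or over all probe sets with 1 gene. The fit was also run on simulated data with independent noise and few changed genes. That setting differs from these arrays, so it does not bear on their calls. Intervals are limma's 95% intervals, unadjusted.

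Members and gene lists were chosen with earlier results of these data known, and the promoter motifs after the sequences were seen. All members are named. From each other list the rule took up to 3 called genes with the highest and 3 with the lowest log2 fold. Figures were drawn with matplotlib 3.10.9. Alternatives covered scaling, dim genes, the probe set, the variance model, weights, a log offset, equal values, a replicate block and each array left out.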

Additional observations from a re-analysis of the deposited data

How the results depend on the processing

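ITGA1, ITGB8, LAMB3, ITGA5 and ITGAE kept direction and call in every alternative that gave them a value. For the members 574 values were recomputed: 16 calls were lost and 37 gained with the same sign, 5 values not called before were called with the other sign, and 32 values not called either way changed sign. With arrays centred on the poly-A controls, 1380 genes were higher and 14740 lower, 24 members and 63 member probe sets lower, 7 probe sets higher, and 16 and 62 genes of the other lists higher and lower (31 and 14 before). There ITGA9 (-0.34), ITGA2B (-0.28), ITGA8 (-0.36), ITGA2 (-0.26), ITGAD (-0.37), LAMA4-AS1 (-0.37) and LAMB2P1 (-0.34) were called lower and DST gave -0.11. Without shared-sequence probe sets 1 member and 9 list genes were lower, ITGB2-AS1 gave -0.06 and FBN1 0.02. With probe sets averaged 7 members were higher. Lower member probe sets numbered 4 with quantile normalization again, with median centring or with the trend and robust variance, and 5 with dim genes or equal values left out, where fewer were tested. The unmoderated test called 1538 genes higher and 1831 lower, 1 member lower, and 18 and 9 list genes. With the replicate block the counts were 1262 and 1316 genes, 1 member lower, 16 and 6 list genes, and 0 member probe sets in either direction by limma (15 at an unadjusted p under 0.05). The numbers name the arrays, and whether same-numbered arrays belong together is not given. Same-numbered deviations correlated at 0.151 and -0.067, which cannot settle this with 2 SAHA arrays. With each array left out, 1769 to 2234 genes were higher and 1985 to 2797 lower, 4 to 6 and 1 to 3 members, 20 to 23 and 9 to 13 list genes, and 9 to 10 and 2 to 5 member probe sets. These fits have fewer degrees of freedom, and without SAHA 1 or SAHA 2 the lone SAHA array is assumed to vary like the DMSO arrays. How far each probe set lies above background cannot be given. Unless stated, the cause of a change was not tested.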

Other observations

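Among the symbols that share the stem of the subunits but encode none, 3 of 10 were called, near the 29.6% of all genes. ITGB3BP, a centromere protein gene, fell by 0.32 on the log2 scale (limma adjusted p = 0.0157), beside ITGB1-DT and ITGB2-AS1 described above, and lost its call without DMSO 2, DMSO 3, SAHA 1 or SAHA 2 (0.0583 to 0.0787). ITGB1BP1, an inhibitor of integrin activation, gave -0.16 (0.0884) with both SAHA arrays below all DMSO arrays.

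The 4 probe sets that the annotation shares between ITGB6 and LINC02478 gave log2 differences of 0.10, -0.02, 0.38 and -0.30, with mixed directions and no test. For the probe set shared by LAMA5 and LAMA5-AS1 the difference was 0.19.

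Markers of other cell types were given for the same arrays. KDR, an endothelial receptor, rose by 1.14 and ACTA2, a smooth muscle actin, by 0.76 (limma adjusted p = 0.0023 and 0.00625), while PECAM1 and CDH5 of endothelium and DES and MYH11 of muscle were not called. Of 5 platelet markers, 0 were called by limma.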
